A study of Mus musculus with 3 samples.

Results

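Lin28a, Lin28b, Hmga1, Hmga2, Igf2bp1, Igf2bp2, Igf2bp3, Myc, Mycn and Mycl were followed as a set of oncofetal genes across the cells of 3 mouse rhabdoid tumours. These 10 genes were listed by symbol, out of 31053 genes counted in every tumour, and each of the 10 matched 1 entry of the deposited gene list. For each tumour, their level and the share of cells that held a transcript were measured in tumour cell states, in cycling cells and in non-tumour cells, all defined by marker genes other than these 10.

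Oncofetal genes are on in the embryo, are turned down as tissues mature and return in many tumours. LIN28A and LIN28B are RNA-binding proteins that block the maturation of let-7 microRNAs, and let-7 in turn represses the messages of Lin28, Hmga2, Igf2bp1 and other growth genes, so that each side of the loop holds the other down. HMGA proteins bend AT-rich DNA in chromatin, IGF2BP proteins bind and stabilise messenger RNAs such as that of Igf2, and MYC, MYCN and MYCL pair with MAX to drive genes of growth and ribosome formation. Mycn is the family member best known for the expansion of neural progenitors.

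Each tumour came from a different Rosa 26-CreERT2::Smarcb1flox/flox mouse. In these mice tamoxifen-activated Cre, expressed from the Rosa26 locus without restriction to a cell type, removes Smarcb1, which encodes a core subunit of the SWI/SNF chromatin remodelling complex, and the animals were of mixed strain background. All 3 tumours carried the label R26-SHH and formed the only group, with 1 droplet-based 3′ library per tumour, so a difference between tumours has no replicate check. Ages and times after tamoxifen were not given in the labels, and no untreated tissue was analysed here.

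The sequence link between these genes was read from the reference. The mature let-7 microRNAs of mouse share the seed at bases 2 to 8. The list used here of 11 RefSeq entries (GRCm38.p6) that carry it counts each name once and does not cover every chromosome. The seed stands in capitals in 4 of the 11, shown because this seed sets which messages let-7 can pair with.
mmu-let-7a-5p: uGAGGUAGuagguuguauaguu
mmu-let-7g-5p: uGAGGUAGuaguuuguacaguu
mmu-let-7i-5p: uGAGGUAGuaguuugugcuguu
mmu-miR-98-5p: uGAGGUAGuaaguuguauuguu

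The complement of the seed, CTACCTC, was searched on the transcript strand of the longest annotated 3′ UTR (untranslated region) of each gene (GENCODE M21, GRCm38). Hmga2, Lin28b and Igf2bp1 each held 4 matches, Lin28a held 2, Hmga1, Igf2bp2 and Igf2bp3 each held 1, and Myc, Mycn and Mycl held 0. Thus 7 of 10 members had a match, beside 10.1% of 21081 genes with a 3′ UTR, and 12 genes (0.0569%) had as many matches as Hmga2. Within the first 1000 bases after the stop codon, 5 of the 8 members with a 3′ UTR of that length had a match, beside 6.97% of 11080 genes. A match describes letters and is not a proven site, the microRNAs themselves were not measured in these libraries, and no match in Myc, Mycn or Mycl says only that these 7 letters are not in that window. One match of each of 5 members is shown with its surroundings, 5′ to 3′ on the transcript strand with the match in capitals, as examples from Lin28b, Hmga2 and the IGF2BP genes.
Lin28b: ccttcacccgggcgggaagtCTACCTCatg
Hmga2: ggggcgccgacattcaatttCTACCTCagc
Igf2bp1: tacgagtataaatggatgaaCTACCTCagt
Igf2bp2: gaaaaacacacaaataaaagCTACCTCagg
Igf2bp3: aaacgtgcatttttactcaaCTACCTCagg

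The Lin28b stretch lies at chr10:45381020-45381049 and begins 36 bases after the stop codon when counted to the first matched base. The Hmga2 stretch lies at chr10:120364222-120364251, with its match 58 bases after the stop codon. The Igf2bp1, Igf2bp2 and Igf2bp3 stretches lie at chr11:95958761-95958790, chr16:22059471-22059500 and chr6:49086785-49086814. All 5 lie on the minus strand inside a single 3′ UTR exon.

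The genes themselves are spread over the genome (GRCm38). Lin28a lies at chr4:134003330-134018841, Lin28b at chr10:45376620-45486395, Hmga1 at chr17:27556497-27563674 and Hmga2 at chr10:120361275-120476469. Igf2bp1 lies at chr11:95957163-96005940, Igf2bp2 at chr16:22059009-22163299 and Igf2bp3 at chr6:49085223-49214957. Myc lies at chr15:61985391-61990374, Mycn at chr12:12936093-12941914 and Mycl at chr4:122995652-123002485.

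After filtering, 8851, 7111 and 4854 cells of tumours 1, 2 and 3 were analysed, at a median of 7133, 2369 and 8070 unique molecular identifiers (UMIs, each standing for 1 captured transcript) per cell. Neural tumour-like cells, which passed no non-tumour gate and held at least 2000 UMIs, numbered 5633, 3013 and 2709, and each of them was placed by its markers in a progenitor-like (Dlx1, Dlx2), stem-like (Sox2, Fabp7), mesenchymal-like (Twist1, collagens) or neuronal-like (Dcx, Stmn2) state, among the cycling cells, or in none. Fabp7 stood higher in stem-like than in progenitor-like cells of each tumour, while Sox2 did not in tumour 3. Smarcb1 itself, whose deleted stretch is not given in the sources used here and need not lie at the 3′ end that was read, stood at 1.15, 1.07 and 0.65 counts per 1000000 UMIs (CPM) in the neural cells of tumours 1 to 3, at 29.4, 20.5 and 20.2 CPM in immune-like cells and at 46.9 to 56.7 CPM in vascular-like cells. The log2 differences were −5.30 (adjusted p = 3.75e-08) and −5.98 (adjusted p = 4.32e-08), lower in neural cells as the label of deletion says. Tumour 3 stood apart from the others. Its mesenchymal-like cells held Twist1 at 178 CPM beside 478 and 393, but Col1a1 at 4.29 beside 336 and 372, so in tumour 3 that class is called by its gate only. In its neural cells 92 of 11463 genes were at least 4-fold above both other tumours (0.803%) and 114 at least 4-fold below both (0.995%), where tumour 1 had 0 (0%) and 2 (0.0174%) and tumour 2 had 13 (0.113%) and 2 (0.0174%). Pairs of tumours shared 42, 22 and 24 cell barcodes, and no call of a member changed when the cells with these barcodes were left out.

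Levels are given throughout as CPM, the gene's UMIs for every 1000000 UMIs of the cells of a class in a tumour. They are compared between classes and tumours for the same gene, never between genes. Differences between classes were tested with edgeR's quasi-likelihood test on summed counts with the tumour as a block (3 tumours, Benjamini-Hochberg adjustment over all genes, threshold 0.05), and adjusted p-values come from it unless DESeq2 is named. The test rescales each sum (TMM), which shifts neural against immune-like differences by −0.66 on the log2 scale relative to the ratio of CPM (−0.74 to −0.51 by tumour) and shifts the other comparisons by −0.17 to 0.04. As plain mean log2 ratios of CPM against immune-like cells, Hmga1 stood at −1.14, Igf2bp2 at 1.53, Igf2bp3 at 1.36 and Myc at 0.94, and Hmga1 against vascular-like cells at 0.09. None of the 10 members was a marker of a class. Where fewer cells and less RNA per cell would both lower a sum, CPM divides by the sum's own UMIs, and a shift of RNA content between classes cannot be told apart from a change of the gene.

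Against immune-like cells, 8 of the 10 members had enough UMIs to be tested. Of these, 5 were higher in neural cells (Hmga2, Igf2bp1, Igf2bp3, Mycn and Mycl), beside 31.3% of 13115 genes, and Hmga1 alone was lower, beside 29.3%. Against vascular-like cells (endothelial and mural), the same 5 members were higher, beside 25.9% of genes, and 0 of 8 were lower, beside 26.1% (0 at an unadjusted p under 0.05 and 0 with DESeq2). Lin28a and Lin28b were below the count filter in both comparisons. Igf2bp1 passed the filter only through its neural sums and so had to differ, and its calls in both comparisons are no support for a difference.

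Fewer differences separated the states. Between neuronal-like and progenitor-like cells, 0 of 9 members were higher, beside 11.6% of 13384 genes (1 at an unadjusted p under 0.05, Lin28b, and 0 with DESeq2), and 2 were lower, Mycn and Hmga2, beside 9.88%. Between stem-like and progenitor-like cells, 0 of 9 were higher, beside 14% (0 unadjusted, 0 with DESeq2), and 4 were lower, Igf2bp1, Myc, Mycn and Mycl, beside 10.8%. Between mesenchymal-like and progenitor-like cells, 0 of 9 were higher, beside 14.5% (0 unadjusted, 0 with DESeq2), and 4 were lower, Igf2bp1, Igf2bp3, Mycn and Mycl, beside 11.3%. Within progenitor-like and stem-like cells, cycling cells were higher than non-cycling cells in 1 of 9 members, Igf2bp3, beside 16.7% of 13161 genes, and lower in 0, beside 14% (1 unadjusted, Myc, and 0 with DESeq2). With DESeq2 the 1 member called in cycling cells was Hmga2 (0.65, adjusted p = 0.0368) and not Igf2bp3.

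**Figure D1:**
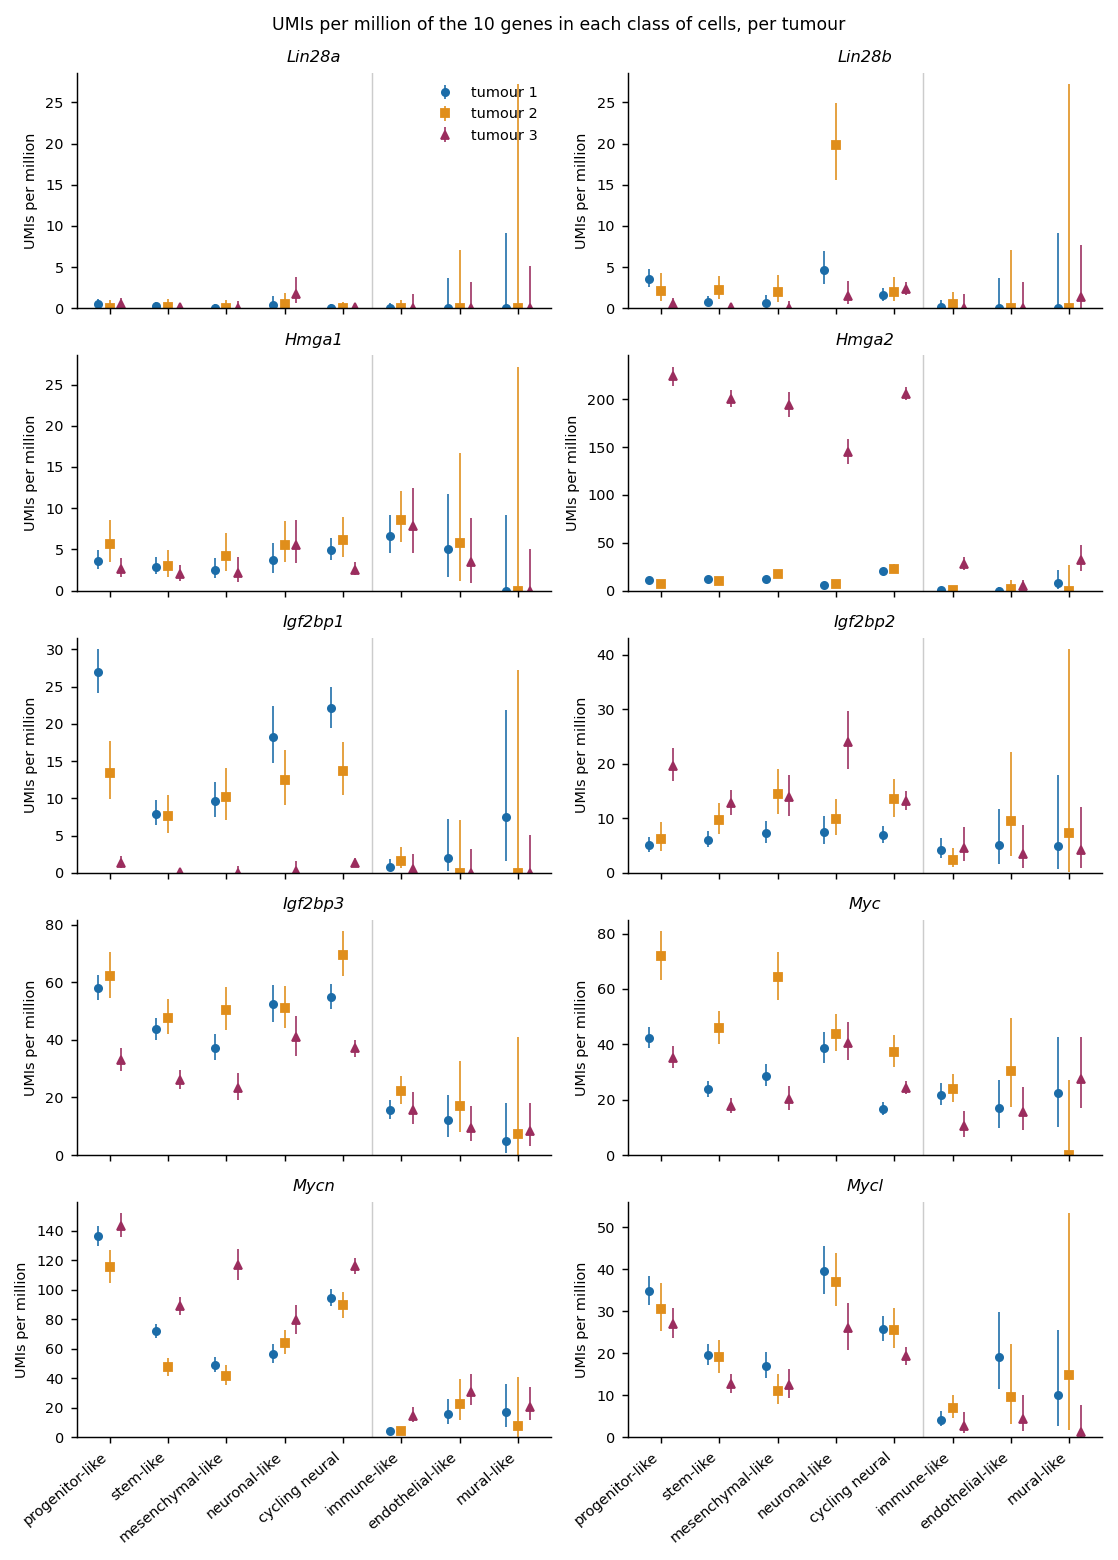
Level of each member (UMIs for every 1000000, CPM, vertical axis, scaled per gene) by cell class (horizontal axis), with 1 point per tumour and bars giving the exact 95% Poisson interval of the count. Mycn stands lower in immune, endothelial and mural classes than in each neural state of the same tumour, while the Hmga2 and Igf2bp1 panels are split by tumour 3.

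**Figure D2:**
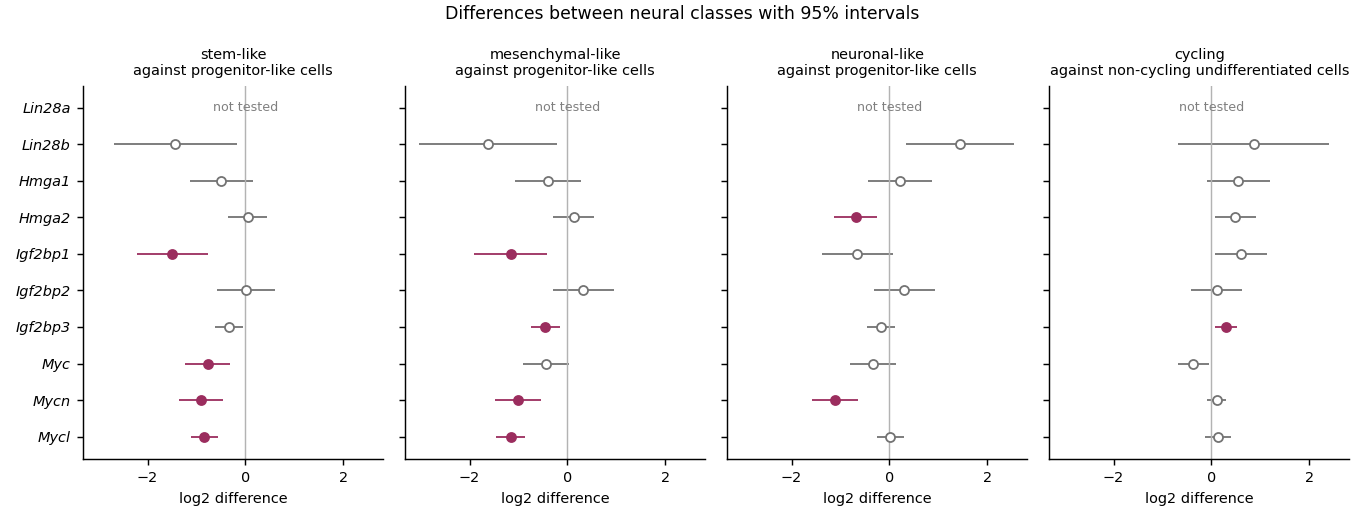
Log2 difference of each member (horizontal axis) in 4 comparisons between neural cell classes, with 95% intervals from edgeR and filled points where the adjusted p was below 0.05. Mycn lies left of 0 with filled points in each of the 3 comparisons with progenitor-like cells.

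The Lin28 genes were rare. Lin28a gave 13, 3 and 15 UMIs in the neural cells of tumours 1, 2 and 3, or 0.22, 0.12 and 0.27 CPM. In immune-like cells it gave 0 UMIs in all 3 tumours, where a count of 0 allows levels of up to 0.549, 0.799 and 1.38 CPM, so a difference between these classes was not detectable at this depth. Neuronal-like cells held 2, 2 and 6 of the Lin28a UMIs, or 10 in all, and progenitor-like cells also held 10.

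Lin28b, the paralog of Lin28a, gave 108, 116 and 60 UMIs in neural cells, or 1.86, 4.61 and 1.08 CPM. In neuronal-like cells it stood at 4.66, 19.8 and 1.44 CPM and in progenitor-like cells at 3.56, 2.14 and 0.46. The neuronal-like level was the higher within every tumour, on 5 and 4 UMIs in tumour 3, tumour 2 held by far the highest value, and the ranges of both classes overlapped across tumours. The log2 difference was 1.44 (95% interval 0.34 to 2.54, adjusted p = 0.0625) and did not pass the threshold, although it did under 5 alternatives, stricter gates (1.63, adjusted p = 0.00664), no doublet removal (1.82, adjusted p = 0.0194), looser cell limits (1.77, adjusted p = 0.00647), no count filter (1.40, adjusted p = 0.0419) and classes from clusters (2.31, adjusted p = 0.0436). Without tumour 2 it was 0.62 (adjusted p = 0.549).

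Sox10 and Pdgfra, genes of the oligodendrocyte lineage, and Smarcb1 stood higher in neuronal-like than in progenitor-like cells of each tumour. Sox10 stood at 15.6, 7.67 and 3.46 CPM in neuronal-like and 0.17, 0 and 0.23 in progenitor-like cells, Pdgfra at 81.9, 27.2 and 20.5 and at 10.3, 13.1 and 7.90, and Smarcb1 at 6.49, 1.59 and 1.44 and at 0.33, 0.80 and 0.70. In tumour 2 Pdgfra stood higher still in mesenchymal-like (44.7) and stem-like cells (31.0). Mbp, another gene of that lineage, stood at 34.3, 150 and 1.73 CPM in neuronal-like and at 16.8, 102 and 2.44 in progenitor-like cells. Without neural cells that held a Sox10 or Smarcb1 UMI, the neuronal-like difference of Lin28b was 1.495 (adjusted p = 0.0546), that of Mycn −1.07 (adjusted p = 0.0044) and that of Hmga2 −0.71 (adjusted p = 0.0308). The part of the remaining cells of that kind was not tested.

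In stem-like cells Lin28b stood at 0.76, 2.20 and 0.10 CPM, and in mesenchymal-like cells at 0.69, 1.98 and 0. In tumour 2 the stem-like level lay close to the progenitor-like one, and in tumours 1 and 3 it lay below. Neither difference from progenitor-like cells passed the threshold (−1.43, adjusted p = 0.0904, and −1.62, adjusted p = 0.0863). At a fixed depth of 2000 UMIs per cell, 3.54% of the neuronal-like cells of tumour 2 held a Lin28b UMI (exact binomial interval 2.21 to 5.36), beside 0.768% in tumour 1 and 0.463% in tumour 3. In progenitor-like cells the shares were 1.08%, 0.726% and 0%, so in tumour 1 the share ran against the level, on 5 and 13 cells with a UMI. Among immune-like cells 0 of 552, 487 and 143 held one, which allows shares of cells with a UMI of up to 0.543%, 0.616% and 2.10% and sets no limit on cells that express the gene. Without thinning, 1.37%, 2.52% and 1.29% of neural cells and 0.11%, 0.342% and 0% of immune-like cells held one. Median depths before thinning were 9412, 7169 and 19033 UMIs in neural cells and 3499, 6505 and 2686 in immune-like cells.

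In tumour 3 the 60 neural Lin28b UMIs lay in 35 cells, and 9 of these cells, which also held Igf2bp1 and of which 7 were cycling, gave 15 of the UMIs. Of the 60, 38 lay in cycling cells, where it stood at 2.30 CPM beside 1.57 and 1.98 in the cycling cells of tumours 1 and 2. Among progenitor-like and stem-like cells it stood at 1.44, 1.72 and 3.06 when cycling and at 2.17, 2.17 and 0.27 when not. Only in tumour 3 was the cycling value the higher of the pair, and over the 3 tumours the difference was 0.87 (adjusted p = 0.372), or −0.45 without tumour 3 (adjusted p = 0.599).

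Hmga1 was the only one of the 8 members tested that was lower in neural than in immune-like cells. It stood at 3.45, 4.89 and 2.45 CPM in neural cells and at 6.58, 8.52 and 7.80 in immune-like cells. Each immune-like value exceeded all 3 neural values, and the log2 difference was −1.78 (SE 0.32, adjusted p = 0.00062). Against vascular-like cells (3.57, 4.54 and 2.12) the difference was −0.09 (95% interval −1.03 to 0.86), and its sign turned under stricter gates and in the plain ratio of CPM. Mural cells gave 0 Hmga1 UMIs in all 3 tumours, on sums of only 401369, 135752 and 725480 UMIs. A count of 0 in sums of this size still allows the neural level of each tumour.

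Hmga1 stood higher in cells with only S phase markers (10.1, 10.0 and 4.51 CPM) than in cells with G2 and mitosis markers (3.52, 5.08 and 2.09), in each tumour, a contrast that was not tested. Its counts are uncertain in part, because 305 of 403 stretches of 98 bases (75.7%) in the last 500 bases of its transcripts also occur in Hmga1b, a near copy that was counted separately at 1.20, 1.51 and 0.16 CPM. The same search found 0 shared stretches for the other 9 members.

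Hmga2, whose level in neural stem cells falls with age, divided the tumours. Neural cells gave 760, 322 and 11524 Hmga2 UMIs in tumours 1, 2 and 3, or 13.1, 12.8 and 207 CPM. Tumours 1 and 2 lay together and tumour 3 stood 15.9-fold above the nearer of them, the 13th largest of 11463 genes by log2 difference (3.9 on log2(value + 1)).

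Tumour 3 was highest in each neural state. Progenitor-like cells held 10.9, 7.23 and 224 Hmga2 CPM, stem-like cells 12.0, 9.99 and 200, mesenchymal-like cells 11.5, 17.0 and 194, and neuronal-like cells 6.08, 7.14 and 145. The ratio of tumour 3 to the mean of the others was 24.7, 18.2, 13.6 and 21.9 in these states and 9.59 in cycling cells. At 2000 UMIs per cell, 29.3% of neural cells of tumour 3 held an Hmga2 UMI, beside 1.79% and 1.96% in tumours 1 and 2 (65.9%, 6.76% and 6.51% without thinning). In immune-like cells the share at 2000 UMIs was 4.20% in tumour 3 and 0% and 0.411% in tumours 1 and 2 (12.4%, 0.552% and 0.514% without thinning).

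Immune-like cells of tumour 3 held Hmga2 at 27.5 CPM, beside 0.91 and 0.80 in tumours 1 and 2. That was 13.3% of the neural level in tumour 3 and 7.0% and 6.25% in the others, while the neural genes Sox2, Sox11 and Fabp7 stood in the same immune-like cells at 9.62%, 8.77% and 12.3% of their neural level in tumour 3 and between 4.77% and 9.83% in the others. The share of neural RNA free in the droplets that enters the immune-like value was not tested. Neural cells exceeded immune-like cells by 2.65 on the log2 scale (SE 0.31, adjusted p = 3.05e-05) and by 3.09 without tumour 3 (adjusted p = 0.000168). They exceeded vascular-like cells (2.14, 1.51 and 15.4 CPM) by 3.44 (SE 0.40, adjusted p = 3.86e-05).

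Hmga2 was lower in neuronal-like than in progenitor-like cells (log2 difference −0.69, SE 0.20, adjusted p = 0.0322). The neuronal-like value was the lower in each tumour, although by little in tumour 2, and the call was lost under 7 of 13 alternatives, among them without tumour 3 (−0.68, adjusted p = 0.128) and without tumour 1 (−0.61, adjusted p = 0.224). Among progenitor-like and stem-like cells, cycling cells held 22.1, 18.9 and 221 CPM and non-cycling cells 11.4, 8.81 and 211. Cycling cells thus held more in tumours 1 and 2 and nearly the same in tumour 3, and the difference was 0.49 (adjusted p = 0.0728), or 1.06 without tumour 3 (adjusted p = 4.98e-06).

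The neighbourhood of Hmga2 was examined because of its level in tumour 3. The antisense gene 1700006J14Rik, whose exons overlap Hmga2 on the opposite strand, was counted as a separate gene, at 0.601, 0.199 and 11.3 CPM. How the counting treated strand is not given in the sources used here, and exchange of reads between it and Hmga2 was not tested. Msrb3, a methionine sulfoxide reductase gene 305 kb away, stood at 10.6, 8.10 and 77.5. Around them, Llph (145, 137 and 152), Tmbim4 (64.8, 66.3 and 62.4) and Lemd3 (21.7, 23.2 and 20.7) differed little between tumours, and Grip1 (22.3, 24.8 and 6.35) and Wif1 (53.8, 53.8 and 20) stood lowest in tumour 3. Tumour 3 was also the highest for Gm15910 (1.72, 0.715 and 5.76), Rassf3 (50.5, 38.7 and 80.4) and Helb (6.05, 8.18 and 10.6).

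**Figure D3:**
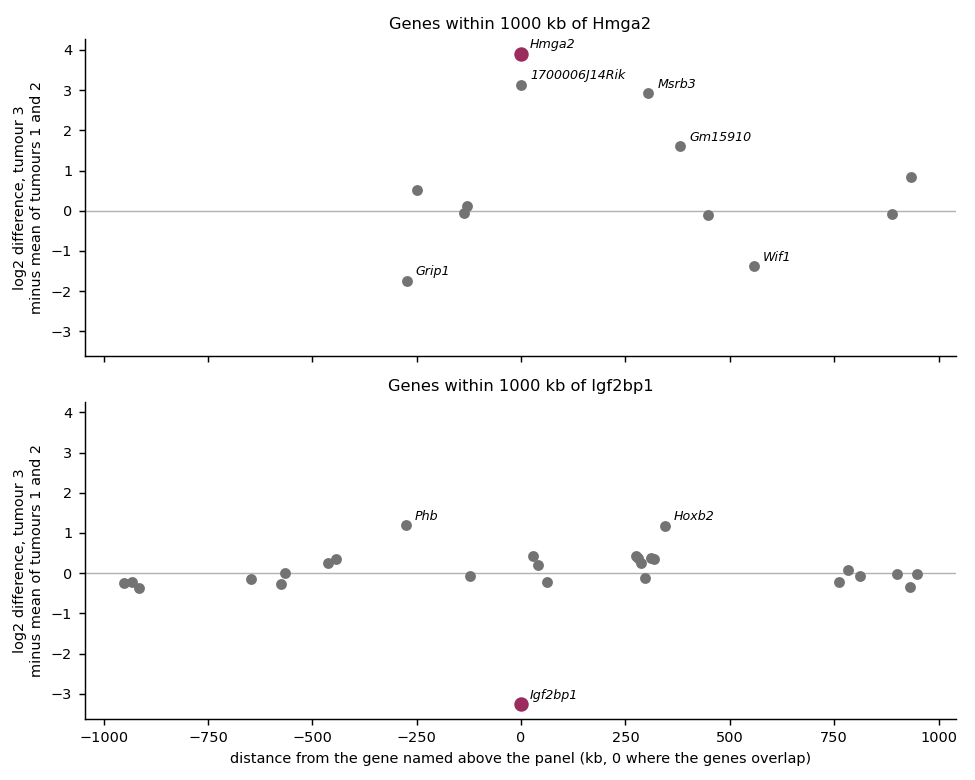
Log2 level of tumour 3 minus the mean of tumours 1 and 2 in neural cells (vertical axis) for genes within 1000 kb of Hmga2 and of Igf2bp1, by distance from the member in kb (horizontal axis). Hmga2 and Msrb3 rise far above neighbours such as Llph and Lemd3, and Igf2bp1 lies far below neighbours such as Snf8 and Ube2z.

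Igf2bp1, the IGF2BP message with the most let-7 seed matches above, was lowest in tumour 3. Neural cells gave 1038, 278 and 34 UMIs, or 17.8, 11 and 0.61 CPM (exact Poisson interval in tumour 3, 0.42 to 0.86). Tumour 3 lay at least 4-fold below each of the others, as 114 of 11463 genes did. Its 34 UMIs lay in 14 cells, with 9 of the UMIs in a single cell. Close neighbours such as Snf8 (58.1, 44.5 and 68.8) and Ube2z (32.9, 33.2 and 38.2) were not low in tumour 3.

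Of the 4 states of tumours 1 and 2, Igf2bp1 stood highest in progenitor-like cells. It stood at 27 and 13.4 CPM there (1.28 in tumour 3), at 7.94 and 7.59 in stem-like cells (0.10), at 9.62 and 10.2 in mesenchymal-like cells (0, where a count of 0 allows up to 0.715) and at 18.2 and 12.4 in neuronal-like cells (0.29). Progenitor-like cells led by level in both tumours, narrowly so over neuronal-like cells in tumour 2. At 2000 UMIs per cell the progenitor-like and neuronal-like shares were 4.81% and 4.30% in tumour 1 and 2.18% and 2.70% in tumour 2, so no order of these states is read in tumour 2. Stem-like cells were lower than progenitor-like cells (log2 difference −1.49, SE 0.33, adjusted p = 0.00897), and so were mesenchymal-like cells (−1.16, SE 0.34, adjusted p = 0.0297). Without tumour 3 the differences were −1.40 (adjusted p = 0.00165) and −1.08 (adjusted p = 0.00772). Without tumour 1 they were −1.36 (adjusted p = 0.259) and −0.94 (adjusted p = 0.486), and neither passed. Without tumour 2 the mesenchymal-like difference was −1.70 (adjusted p = 0.0583), and with classes from clusters neither passed (adjusted p = 0.302 and 0.102).

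Igf2bp1 gave 4, 6 and 1 UMIs in immune-like cells and 5, 0 and 0 in vascular-like cells, and 3 and 2 UMIs in the oligodendrocyte-like cells of tumours 1 and 2 (6.53 and 3.51 CPM). Since only its neural sums carried it past the count filter, no test is read from these comparisons. Tumour 3 held 0.61 CPM in neural and 0.46 in immune-like cells.

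Igf2bp2, a paralog that also persists in adult tissues, was highest in tumour 3, at 6.41, 11.4 and 15.2 CPM in neural cells. Immune-like cells held 4.21, 2.40 and 4.59, below the neural value of the same tumour each time, but the difference of 0.82 did not pass the threshold (95% interval −0.10 to 1.74, adjusted p = 0.109). Progenitor-like cells of tumour 3 held 19.6 and neuronal-like cells 23.9, above every value of tumours 1 and 2 in those classes (5.04 to 9.79). In mesenchymal-like and in cycling cells the highest value was instead that of tumour 2 (14.4 and 13.4). None of the 4 comparisons between neural classes passed the threshold for Igf2bp2.

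**Figure D4:**
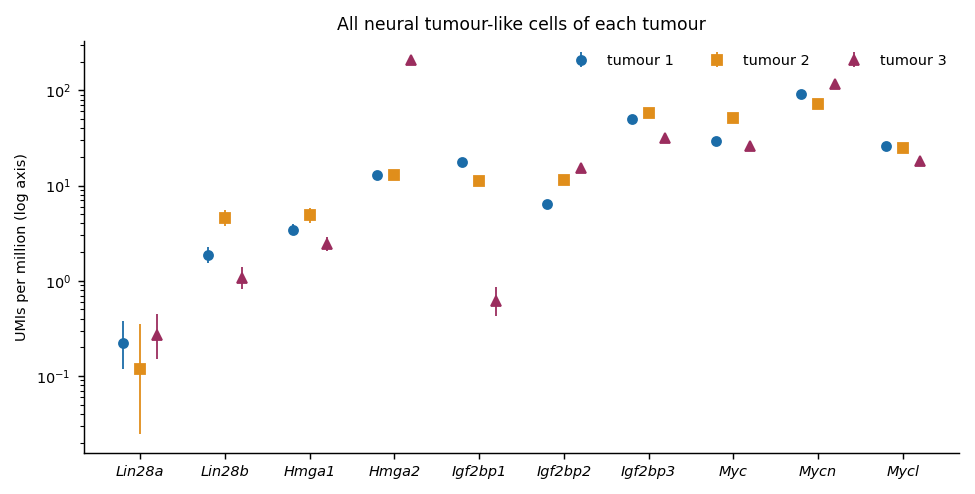
Level of each member in neural tumour-like cells (CPM, logarithmic axis) in tumours 1, 2 and 3, with exact 95% Poisson intervals. The interval of tumour 3 stands clear of the others, above for Hmga2 at 207 and below for Igf2bp1 at 0.61, while Mycn stays between 72.7 and 115.

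Igf2bp3, the IGF2BP member most often used as a marker of malignancy, was present in every neural state. It stood at 50.2, 57.4 and 31.6 CPM in neural cells, at 15.5, 22.1 and 15.6 in immune-like cells and at 10.0, 15.1 and 9.01 in vascular-like cells. All neural values lay above all immune-like and vascular-like values. The log2 differences were 0.71 (SE 0.17, adjusted p = 0.00375) and 1.85 (SE 0.21, adjusted p = 2.8e-05). Without tumour 1 the former was 0.57 (adjusted p = 0.138) and did not pass. Immune-like cells held 30.9%, 38.5% and 49.4% of the neural level, above the shares of Sox2 in the same cells (4.99%, 5.01% and 9.62%).

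Igf2bp3 was measured in each state. Progenitor-like cells held 58.1, 62.1 and 33.0 CPM, stem-like cells 43.6, 47.7 and 26.1, mesenchymal-like cells 37.2, 50.4 and 23.4 and neuronal-like cells 52.3, 51.1 and 40.9. Mesenchymal-like cells were lower than progenitor-like cells in each tumour (log2 difference −0.45, SE 0.13, adjusted p = 0.0297). Without tumour 1 it was −0.34 (adjusted p = 0.375) and without tumour 2 −0.55 (adjusted p = 0.067), and neither passed. The difference of stem-like cells was −0.34 (adjusted p = 0.0753).

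Cycling progenitor-like and stem-like cells held 54.0, 64.2 and 40.1 Igf2bp3 CPM and non-cycling cells 50.9, 53.9 and 29.4. Cycling cells were higher in each tumour, by 0.30 on the log2 scale (SE 0.10, adjusted p = 0.0481). The call lay at the threshold and was lost under 11 of 13 alternatives, with an adjusted p of 0.0793, 0.126 and 0.163 without tumour 1, 2 and 3. The 3′ end of Igf2bp3 overlaps exons of Malsu1 on the opposite strand, and how the counting treated strand is not given in the sources used here.

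Myc, the family member of many dividing tissues, stood at 29.1, 51.2 and 25.9 CPM in neural cells and at 21.8, 23.7 and 10.6 in immune-like cells. Neural values were the higher in each tumour and the ranges did not overlap, but on the scale of the test the difference of 0.21 did not pass the threshold (95% interval −0.32 to 0.73, adjusted p = 0.477). The difference from vascular-like cells (18.6, 24.2 and 20.1) was 0.49 (adjusted p = 0.142).

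Tumour 2 had the highest Myc level in every neural state. Progenitor-like cells held 42.4, 71.8 and 35.2 CPM and stem-like cells 23.7, 45.7 and 17.8. Stem-like cells were lower in each tumour (log2 difference −0.77, SE 0.21, adjusted p = 0.0206), a call lost without tumour 1 (−0.76, adjusted p = 0.191), without doublet removal (−0.56, adjusted p = 0.0951), with classes from clusters (−0.24, adjusted p = 0.732) and without the block (−0.73, adjusted p = 0.466). Cycling progenitor-like and stem-like cells held 19.2, 41.9 and 25.7 and non-cycling cells 33.2, 56.9 and 26.0. The difference was −0.37 (adjusted p = 0.0782) with all tumours and −0.58 without tumour 3 (adjusted p = 0.000292), where the values were nearly equal.

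Mycn, the family member of neural progenitors, stood at 91.7, 72.7 and 115 CPM in neural cells, at 4.39, 4.53 and 14.7 in immune-like cells and at 16.4, 19.7 and 27 in vascular-like cells. No neural value came near a non-tumour value. The log2 differences were 3.1 (SE 0.23, adjusted p = 9.5e-07) and 2.03 (SE 0.23, adjusted p = 3.78e-05), and both passed under each of 13 alternatives. The immune-like level was 4.78%, 6.23% and 12.7% of the neural level, close to the shares of Sox2 in the same cells.

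Mycn also peaked in progenitor-like cells. These held 137, 115 and 144 CPM, beside 72.1, 47.5 and 89.0 in stem-like cells, 49.1, 41.6 and 117 in mesenchymal-like cells and 56.6, 64.3 and 79.5 in neuronal-like cells. Progenitor-like cells had the highest value in each tumour, and only the mesenchymal-like cells of tumour 3, which are low in Col1a1, overlapped their range.

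The log2 differences of Mycn from progenitor-like cells were −0.91 for stem-like cells (SE 0.20, adjusted p = 0.00906), −1.01 for mesenchymal-like cells (SE 0.21, adjusted p = 0.00611) and −1.11 for neuronal-like cells (SE 0.21, adjusted p = 0.00418). Without tumour 3 the mesenchymal-like difference was −1.45 (adjusted p = 3.59e-05). Without tumour 1 the adjusted p-values were 0.0685, 0.13 and 0.0733 and without tumour 2 0.101, 0.0866 and 0.052, in the same directions. With classes from clusters the stem-like difference was −0.65 (adjusted p = 0.426). At 2000 UMIs per cell, 21.6%, 14.0% and 24.6% of progenitor-like cells held a Mycn UMI, beside 9.68%, 7.42% and 8.33% of neuronal-like cells and 0.906%, 1.44% and 1.40% of immune-like cells. Without thinning, 36.3%, 26.9% and 58.9% of neural cells and 2.43%, 2.91% and 6.22% of immune-like cells held one.

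Mycn levels were 93.9, 91.2 and 129 CPM in cycling and 105, 76.5 and 115 in non-cycling progenitor-like and stem-like cells. Cycling cells held more in tumours 2 and 3 and less in tumour 1, and the difference was 0.11 (95% interval −0.09 to 0.31, adjusted p = 0.395).

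Mycl stood at 26.2, 24.7 and 17.9 CPM in neural cells and at 4.21, 6.93 and 2.75 in immune-like cells. The groups did not overlap, and the difference was 1.69 on the log2 scale (SE 0.35, adjusted p = 0.0018). Against vascular-like cells (16.4, 10.6 and 3.18) it was 1.15 (adjusted p = 0.0247), but 1.21 without tumour 2 (adjusted p = 0.0633) and 0.60 without tumour 3 (adjusted p = 0.188), where it did not pass.

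Mycl was shared by progenitor-like and neuronal-like cells, with 34.8, 30.5 and 27.1 CPM in the former and 39.5, 37.0 and 25.9 in the latter. The difference between them was 0.02 (95% interval −0.26 to 0.29), whereas Mycn in the same cells differed by −1.11. Stem-like cells held 19.5, 19 and 12.7 Mycl CPM and mesenchymal-like cells 17.0, 11 and 12.4, below every progenitor-like and neuronal-like value. The log2 differences from progenitor-like cells were −0.84 (SE 0.12, adjusted p = 0.00111) and −1.15 (SE 0.13, adjusted p = 0.000271). With classes from clusters they were −0.95 (adjusted p = 0.1996) and −0.80 (adjusted p = 0.0918) and did not pass.

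Not all non-tumour cells were low in Mycl. Oligodendrocyte-like cells, 85 in tumour 1 and 159 in tumour 2, held it at 41.4 CPM (19 UMIs, exact Poisson interval 24.9 to 64.6) and 21.0 CPM (12 UMIs, 10.9 to 36.8), and their intervals include the neural levels of the same tumours. The same cells held Igf2bp3 at 28.3 and 31.6 CPM, Myc at 19.6 and 19.3, Mycn at 19.6 and 15.8, Igf2bp2 at 8.71 and 5.26 and Hmga1 at 2.18 and 5.26. Hmga2 gave 0 and 3 UMIs, and Lin28a and Lin28b gave 0, which allows up to 6.53 and 5.26 CPM. The neural genes Sox11 (449 and 444 CPM, beside 2503 and 2482 in neural cells) and Fabp7 (686 and 486, beside 2240 and 1834) stood in the same cells, whose median depth was 1376 and 1334 UMIs, and the part of free RNA in the members' levels was not tested. Tumour 3 had 4 such cells, and no comparison with this class was tested.

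The number of members detected in a cell depends on depth. At 2000 UMIs, 33.5%, 34.6% and 50.1% of neural cells held at least 1 member and 5.02%, 5.87% and 12.3% at least 2. Without thinning, a single pair, Hmga2 with Mycn, was found in 1199 of the 2709 neural cells of tumour 3, and Igf2bp3 with Mycn in 848 of the 5633 of tumour 1. Pairs were compared, without thinning, with the number expected if both genes were independent within each of 10 depth bins of cells, as a description. Of 45 pairs, 29 had at least 5 cells expected in each tumour, 11 of them were above expectation in every tumour, and 1 was above it by 1.3 times or more in every tumour.

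That pair was Lin28b with Mycl, found in 25, 22 and 19 cells where 16.0, 12.8 and 9.64 were expected. Hmga2 with Igf2bp2 was found in 68, 38 and 412 cells where 25.9, 19.4 and 338 were expected, a ratio of 2.63, 1.96 and 1.22. Igf2bp1 with Igf2bp3 was found in 325, 87 and 12 cells where 271, 75.2 and 6.27 were expected. Myc with Mycn was found in 336, 217 and 385 cells where 369, 218 and 392 were expected, close to independence in all 3 tumours.

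**Figure D5:**
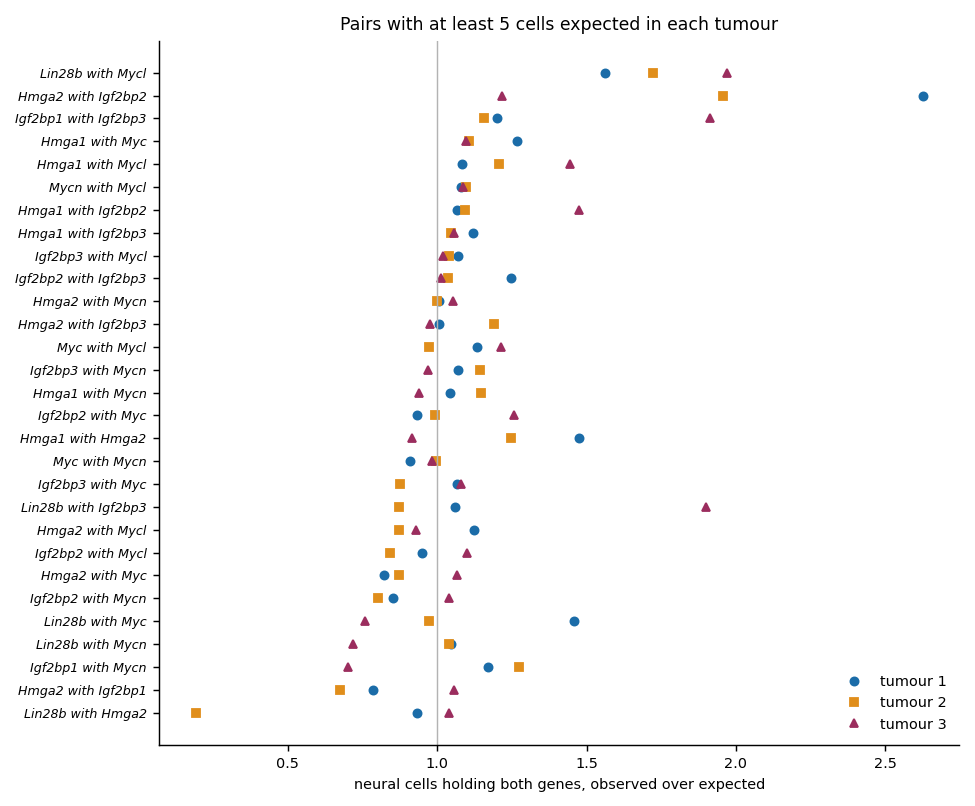
Observed over expected number of neural cells holding both genes (horizontal axis) for 29 pairs of members, with 1 point per tumour. Lin28b with Mycl is the pair whose points all lie above 1.3, and the points of Myc with Mycn lie between 0.909 and 0.997.

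The genes whose levels ran most like each member were named by Pearson's r of log2 levels over 26 sums (classes by tumours), among 13367 genes and as a description. Sums of 1 tumour share a library, so a gene that sets tumour 3 apart scores high with Hmga2 or Igf2bp1. For Hmga2 these were Crabp2 (0.96), Emx2 (0.96) and Gxylt2 (0.96), and for Igf2bp1 Sall4 (0.96), Gm4675 (0.94) and AC164424.1 (0.91). Crabp2, a carrier of retinoic acid, stood at 15.8, 11.7 and 113 CPM in neural cells, and Sall4, a transcription factor of embryonic stem cells, at 20.3, 17.6 and 0.54. Sall4, another oncofetal gene, was thus low in the same tumour as Igf2bp1.

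For Mycn the 3 genes were Chd3 (0.95), Qser1 (0.95) and Ruvbl1 (0.95), for Mycl Zfp617 (0.90), Fopnl (0.90) and 2300009A05Rik (0.89), and for Myc Gtdc1 (0.86), Sec22a (0.84) and Tmem68 (0.84). For Igf2bp3 they were Flrt3 (0.94), Pou3f4 (0.94) and Bach2 (0.94), for Igf2bp2 Aard (0.83), Gpr50 (0.82) and Foxp2 (0.81), and for Hmga1 Uhrf1bp1 (0.91), Abhd17c (0.86) and Ap1b1 (0.85). Lin28a and Lin28b were too low to be compared in this way.

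The genes around the members in their pathways were read from listed groups. Whether a list gene passed the count filter only through the class where it was higher was not checked. Over all genes tested, the shares higher and lower were 31.3% and 29.3% against immune-like cells, 25.9% and 26.1% against vascular-like cells, 11.6% and 9.88% in neuronal-like, 14% and 10.8% in stem-like, 14.5% and 11.3% in mesenchymal-like and 16.7% and 14% in cycling cells, and each count below stands beside these. Of 25 Myc target genes, mostly of ribosome formation and nucleotide synthesis, 18 were lower in neuronal-like than in progenitor-like cells and 0 higher (0 also at an unadjusted p under 0.05, median log2 difference −0.40, beside −0.02 over all genes tested). In stem-like cells 17 were lower and 1 higher (median −0.28, beside 0.00), and in mesenchymal-like cells 18 were lower and 1 higher (median −0.33, beside −0.02). The list counts were not drawn again under the alternatives. With classes from clusters only 15 of 14086 genes passed in stem-like cells, 2 of them lower. The stem-like counts of this and the later lists thus rest on the marker gates. In cycling cells 16 were higher and 0 lower (0 unadjusted, median 0.39, beside −0.04). Against immune-like cells 7 were higher and 2 lower, and against vascular-like cells 17 and 3. Npm1, a nucleolar chaperone, was lower in neuronal-like cells (log2 difference −0.53), as were Rrs1 (−0.54) and the transferrin receptor gene Tfrc (−0.70, and −1.05 in stem-like cells). The exception above progenitor-like cells was the lactate dehydrogenase gene Ldha, higher in stem-like (0.79) and mesenchymal-like cells (1.63).

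Of 17 genes of the Myc network, among them Max and its other partners, 16 were tested between states. In neuronal-like cells 1 was lower and 0 higher, and in stem-like and in mesenchymal-like cells 5 were lower and 0 higher (1, 0 and 1 higher at an unadjusted p under 0.05), with Fbxw7, which marks MYC proteins for degradation, lower in stem-like cells (−0.85). In cycling cells 3 were higher and 4 lower, the largest differences being those of Mxd3 (5.54) and Aurka (4.73), both genes of dividing cells. Against immune-like cells 3 were higher and 6 lower, with Mlxipl lower (−4.56), and against vascular-like cells 5 were higher and 3 lower. Beside 31.3% and 29.3%, and 25.9% and 26.1%, of all genes, these counts of 17 are no result about the list.

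Of 15 genes listed around let-7, such as those of its processing, 14 were tested. In neuronal-like cells 3 were lower than in progenitor-like cells, in stem-like cells 7 and in mesenchymal-like cells 6, with 0 higher in each (0, 0 and 1 at an unadjusted p under 0.05), and in cycling cells 6 were higher and 3 lower. Against immune-like cells 6 were higher and 2 lower, and against vascular-like cells 8 were higher and 1 lower, with the RNA-binding gene Msi1 higher by 3.15, beside 31.3% and 29.3% and 25.9% and 26.1% of all genes. Dicer1, which cuts the precursor, differed from progenitor-like cells by −0.04 in neuronal-like cells, and by −0.27 in stem-like cells, where it passed the threshold.

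Of 24 genes listed as let-7 targets beside the members, among them Trim71, which is also on the list above, 21 were tested between states. In neuronal-like cells 6 were lower and 1 higher (median −0.31, beside −0.02 over all genes), with Plagl2 (−0.69), Cdk6 (−0.64) and Ccnd2 (−0.62), the last 2 being cell cycle genes, lower in each tumour. In stem-like cells 5 were lower and 4 higher and in mesenchymal-like cells 6 were lower and 2 higher, where Thbs1 was higher by 1.01 and 1.73. Over all genes 10.8% were lower and 14% higher in stem-like cells and 11.3% and 14.5% in mesenchymal-like cells, and the medians of the list, 0.01 and −0.23, stood beside 0.00 and −0.02. In cycling cells 6 were higher and 3 lower, led by Dna2 (2.60) and Cdc25a (1.36). Of 20 tested against non-tumour cells, 11 were higher and 7 lower than in immune-like cells, with Tgfbr1 lower (−3.42), and 8 were higher and 3 lower than in vascular-like cells. Members of this list thus moved in both directions in each comparison.

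Of 15 messages and partners of IGF2BP proteins, 10 were higher in cycling cells and 0 lower (1 at an unadjusted p under 0.05). H19 stood at 254, 204 and 9.57 CPM in cycling and at 53.0, 31.3 and 4.33 in non-cycling progenitor-like and stem-like cells (log2 difference 2.27), and Igf2 at 20.8, 22.4 and 5.85 and at 11.7, 11.6 and 0.38 (1.43). Both genes, which lie in 1 imprinted domain, were higher in cycling cells of each tumour and lowest in tumour 3, the tumour with the lowest Igf2bp1. Tumour 3 is 1 library, in which 114 of 11463 genes were at least 4-fold below both others, and a link to Igf2bp1 was not tested. Between states, 5 were lower and 1 higher in neuronal-like cells, 4 lower and 2 higher in stem-like cells (Cd44 2.07, Igf2 1.49), and 3 lower and 3 higher in mesenchymal-like cells (H19 2.70, Cd44 1.96). Against immune-like cells 4 were higher and 4 lower, with H19 higher by 3.26 and the adhesion gene Cd44 lower (−3.98), counts near the 31.3% and 29.3% of all genes. Against vascular-like cells 9 were higher and 2 lower, with H19 (5.44), Igf2 (3.34) and Mapk4 (2.85) leading.

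Of 14 other oncofetal genes, 6 or 7 had enough UMIs. In neural cells 4 were higher than in immune-like cells and 1 lower, Sall4 being higher (3.68) and Afp, held by immune-like cells at 20.3, 9.86 and 15.1 CPM and by neural cells in 4, 1 and 1 UMIs, lower (−8.94). Against vascular-like cells 3 were higher and 0 lower (0 unadjusted), among them Sall4 (3.17) and the imprinted gene Peg10 (2.61). Whether Afp and Sall4 passed the count filter only through the class where they are high was not checked. Their calls, and the counts that hold them, are therefore no support for a difference. Between states, 1 was lower in neuronal-like cells, 1 was lower and 1 higher in stem-like cells, and 2 were lower (Peg10 −1.12) and 3 higher in mesenchymal-like cells, where Nanog was higher by 1.05. In cycling cells 3 were higher and 0 lower (0 unadjusted). How far reads of gene copies enter the Nanog count was not examined.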

How the data were processed

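UMI counts per gene and cell barcode were deposited by the authors for 3 tumours, made with Cell Ranger 3.1.0 on mm10 according to the submitters' processing notes, and libraries held 40151353 to 79529921 UMIs in 6428 to 12467 barcodes. Cells failing a gene or mitochondrial limit were removed. Scrublet (scanpy 1.11.5) marked at most 1 doublet per tumour by its own threshold, so the top 7.63%, 6.05% and 4.00% of scores were removed. Cells were gated on marker lists (at least 3 markers and a minimum share of UMIs), and states went to the highest mean z score at 2000 UMIs with a lead of at least 0.1. Between 15.1% and 18.5% of neural cells lay within that lead of the state cut, and 23.1% to 36.1% took no state. Shares of cells were measured after thinning each cell to 2000 UMIs.

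Counts were summed per tumour and class (at least 20 cells) and tested in edgeR 4.0.16 (R 4.3.3) with TMM, filterByExpr and the quasi-likelihood test. The tumour entered as a block because classes came from the same animal, and deviations of classes of 1 tumour correlated at 0.267 to 0.893, beside at most 0.260 between tumours. The script was tested on simulated data. With 1 tumour left out, the spread was pooled over classes. Poisson and binomial intervals cover counting error only, and those of log2 differences come from edgeR's standard errors over the tumours.

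The 10 members and the lists were chosen with earlier results of these data known. Named were all members, up to 6 list genes per comparison by size of the difference among those past the threshold and alike in 3 tumours, 3 genes per member by likeness, and Smarcb1. Other genes named were chosen after their values were seen. Sites and neighbours came from GENCODE M21 and microRNAs from RefSeq, both on the genome that mm10 names. Alternatives were RLE factors, DESeq2 1.42.0, no filter, no block, each tumour left out, looser cell limits, no doublet removal, stricter gates, clusters, other depths and, added after seeing the data, leaving out neural cells with a Sox10 or Smarcb1 UMI or shared barcodes.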

Additional observations from a re-analysis of the deposited data

Results flagged for a closer look

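Cells with fewer than 2000 UMIs that passed no non-tumour gate entered none of the comparisons, and a member signal appeared in them above the level in immune-like cells. Igf2bp3 stood at 94.7, 101 and 70.8 CPM (counts per 1000000 UMIs) in these shallow cells of tumours 1, 2 and 3 (mean 89.0), beside 50.2, 57.4 and 31.6 in neural cells and 15.5, 22.1 and 15.6 in immune-like cells. The shallow value was the highest of the 3 in each tumour. In the same shallow cells Mycn stood at 54.5, 38.6 and 90.0, below its neural level in each tumour, Hmga2 at 18.8, 6.38 and 206, and Lin28b at 4.07, 14.4 and 1.99. Depth moves with this class by its definition, and its part in the Igf2bp3 value was not tested.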

How the results depend on the processing

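For the 22 member differences past the threshold, all 286 values under the alternatives run kept their direction, 230 kept their side of the threshold and 56 lost it. The causes were not tested. Hmga1, Mycn and Mycl against immune-like cells and Igf2bp3 and Mycn against vascular-like cells never lost it. Depth limits Lin28a, and 1 library per tumour limits every difference between tumours.

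Without the replicate block, members past the threshold numbered 2 against vascular-like cells, 0 in neuronal-like, 0 in stem-like, 1 in mesenchymal-like and 0 in cycling cells, and genes 100, 225, 491 and 685 in the last 4 (2874, 3314, 3458 and 4040 with the block). With 1 tumour left out, members past the threshold ranged from 4 to 6 against immune-like cells, 3 to 4 against vascular-like cells, 0 to 3 in neuronal-like, 1 to 5 in stem-like, 1 to 5 in mesenchymal-like and 0 to 2 in cycling cells, and genes past it from 607 to 3566 (neuronal-like), 742 to 3679 (stem-like), 597 to 4255 (mesenchymal-like) and 2140 to 4280 (cycling). Against immune-like and vascular-like cells genes past it ranged from 5393 to 8420 and from 4314 to 6154. Without tumour 1, genes higher in neural cells fell from 4105 to 2492 and from 3401 to 1704. With classes from clusters, 0 members and 15 genes passed in stem-like cells and 2 members and 1553 genes in mesenchymal-like cells. In cycling cells 0 members passed with RLE factors, 3 without the count filter, 2 without doublet removal and 0 without cells holding a Sox10 or Smarcb1 UMI, and 2630 genes with DESeq2. RLE factors moved the median of all genes against vascular-like cells from 0.12 to −0.00 and the calls from 3401 higher and 3418 lower to 2852 and 3797.

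Signs turned only in differences that had not passed. Leaving out 1 tumour gave log2 differences from −0.036 to 0.52 for Myc against immune-like cells, −0.13 to 0.41 for Hmga1 and −0.041 to 0.093 for Mycl in neuronal-like cells, −0.014 to 0.26 for Hmga2 and −0.19 to 0.45 for Igf2bp2 in stem-like cells, −0.086 to 0.55 for Hmga2 and −0.012 to 0.86 for Igf2bp2 in mesenchymal-like cells, and −0.45 to 1.78 for Lin28b and −0.16 to 0.28 for Igf2bp2 in cycling cells. Without the replicate block Hmga2 stood at −0.087 and Igf2bp2 at −0.094 in stem-like cells and Hmga2 at −0.12 in mesenchymal-like cells. Mycl in neuronal-like cells stood at −0.027 without the count filter, −0.0024 with looser cell limits, −0.045 without doublet removal and −0.089 with stricter gates. Igf2bp2 in stem-like cells stood at −0.00040 without the filter, −0.013 without cells holding a Sox10 or Smarcb1 UMI and −0.0020 without shared barcodes, and in cycling cells at −0.059 without doublet removal. Hmga1 against vascular-like cells stood at 0.13 with stricter gates and 0.033 without shared barcodes. With clusters, mesenchymal-like cells gave −0.24 for Hmga2 and 0.080 for Myc.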

Other observations

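Tumour 3 held Igf2bp1 in 14 of 2709 neural cells, examined after their values had been seen. Of these cells, 9 also held Lin28b, where 0.262 were expected from the depth of the cells, beside 11 observed and 10.7 expected in tumour 1 and 6 and 5.76 in tumour 2. Among the 14 cells, 10 were cycling, as were 22.3% of the other neural cells. The 9 with Lin28b held Igf2bp3 at 161 CPM (counts per 1000000 UMIs), Mycl at 55.8 and Hmga2 at 353, and the other 5 held them at 76.1, 185 and 76.1, on 7, 17 and 7 UMIs, beside 30.7, 17.4 and 207 in the other neural cells of tumour 3. Msrb3, the neighbour of Hmga2 that is high in tumour 3, gave 2 UMIs in the 14 cells, or 4.82 CPM beside 78.1, and Sall4 gave 1. The median depth of the 14 was 25919 UMIs, beside 19016, and its part in these values was not tested beyond the expectation by depth.

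In tumour 2, Lin28b and Hmga2 were found together in 1 cell where 5.22 were expected, beside 6 and 6.42 in tumour 1 and 27 and 25.9 in tumour 3.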
